A study of Mus musculus with 4 samples.

Results

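The genes described here are 5 keratins (Krt7, Krt8, Krt18, Krt19 and Krt23) and 5 markers of bile duct or progenitor cells (Sox9, Sox4, Epcam, Cd24a and Prom1). They were picked by symbol and make up 10 of the 52630 genes in the table. AML12 is a mouse hepatocyte line established from the liver of mice that carry a transgene for human TGF-alpha. The cells were infected with lentivirus carrying a hairpin against Topors (shTopors) or a control hairpin (shCtrl), with 2 libraries in each group. Both groups grew in serum, an insulin, transferrin and selenium supplement and 0.1 µM dexamethasone, received 200 µl of concentrated virus had their medium changed at 24 hours and were collected on day 5 after infection. The sources used here do not give the number of hairpins. Nothing in the labels makes the 2 libraries of a group separate cultures, so every p-value measures how far these libraries differ, and that spread may be technical.

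Keratins are the intermediate filament proteins of epithelial cells. A filament needs a type I keratin (here Krt18, Krt19 and Krt23) paired with a type II keratin (Krt7 and Krt8). In adult liver, hepatocytes make almost only the Krt8 and Krt18 pair, whereas bile duct cells add Krt7 and Krt19. SOX9 is a transcription factor of bile duct and progenitor cells that responds to NOTCH signalling during duct formation, and Epcam, Cd24a and Prom1 encode surface proteins used to sort liver progenitors. Comparing shTopors with shCtrl asks how these transcripts stood once Topors, the gene of a ubiquitin and SUMO ligase, was reduced.

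The values are TPM (length-scaled transcript abundances with a fixed total per library), on which levels of different genes can be compared. Read depth is lost in TPM and therefore unknown, and counting limits cannot be given. Topors itself was at 4.31 and 4.65 TPM in shTopors, against 21.9 and 29.2 TPM in shCtrl, which goes with the labels, although its adjusted p = 0.0823 in limma did not pass the threshold of 0.05. It passed without shTopors 1 (adjusted p = 3.39e-06 in limma) or shTopors 2 (1.9e-07), but not without shCtrl 1 (0.306) or shCtrl 2 (0.872). The SD of the log2 difference over all tested genes was 0.688 between the shTopors libraries and 0.429 between the shCtrl libraries. Markers of other liver cells were scarce. Summed over 14 stellate cell and fibroblast markers, the level was 0.646 and 1.27 TPM in shTopors and 1.05 and 0.901 TPM in shCtrl, and 6 of the 14 were at 0 in every library. The 12 leukocyte markers summed to 1.39 and 1.4998 TPM in shTopors and 1.99 and 1.86 TPM in shCtrl. The 12 endothelial markers summed to 10.6 and 8.09 TPM in shTopors and 6.57 and 10.7 TPM in shCtrl, mostly from Stab1 and Egfl7, while Pecam1 did not exceed 0.191 TPM.

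Of the 10 genes, 7 averaged 1 TPM or more across all libraries and were tested. They passed that filter in every library on its own, the lowest value being 26.9 TPM. In limma, none of the 7 reached the adjusted threshold of 0.05 in either direction, where 0.0074% of the 13509 tested genes passed as higher and 0.0296% as lower. Sox9, Sox4 and Cd24a were lower in both shTopors libraries than in both controls, Krt18 and Krt19 were higher in both, and Krt7 and Krt8 overlapped. The libraries of the groups stood apart in this way for 35.2% of tested genes as lower and 14.6% as higher, so counts of 3 and 2 among 7 are not far from the background. At an unadjusted p under 0.05 in limma, 3 of the 7 were lower and 0 higher, against 10.7% and 3.98% of all tested genes. The counts depended on which library was left out. Without shTopors 2, 6 of the 7 passed in limma, all but Krt7, along with 687 of all tested genes as higher and 1479 as lower, and without shTopors 1 only Sox9 did, along with 246 and 901. With either control left out no member passed. A fit without a shTopors library takes its spread from the controls alone, and a fit without a control from the shTopors pair alone. That pair differed more (SD of the log2 difference 0.688, against 0.429), so these fits differ in how readily any gene passes. The median log2 difference of the 7 was -0.13, beside -0.18 over all tested genes.

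**Figure D1:**
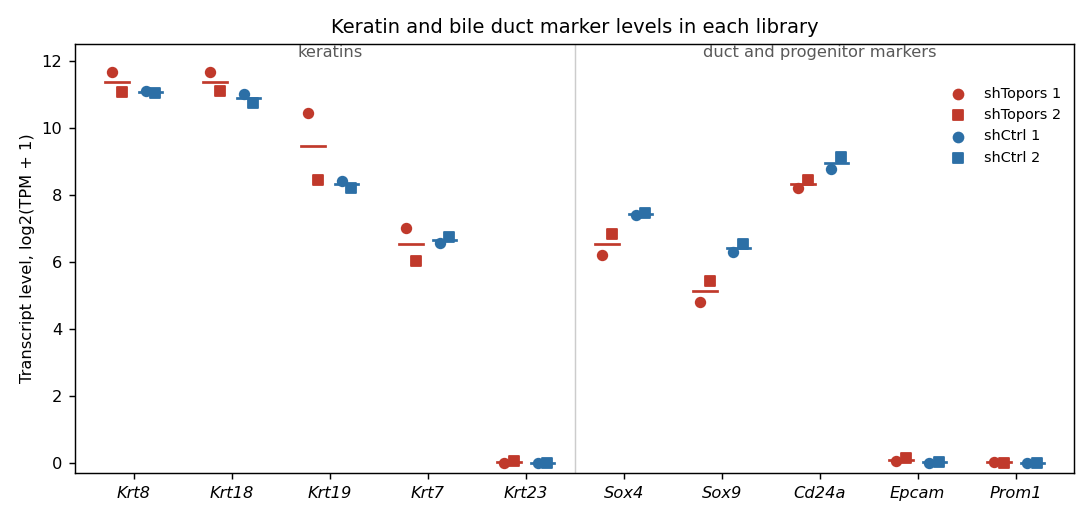
Transcript level of each gene, as log2(TPM + 1), in the 2 shTopors libraries (red) and the 2 shCtrl libraries (blue), where bars mark the mean of the log2 values. Krt8 and Krt18 are the most abundant, Sox9, Sox4 and Cd24a lie lower in both shTopors libraries, and Krt23, Epcam and Prom1 sit at about 0 throughout.

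Krt8 and Krt18, the simple epithelial pair of hepatocytes, were the most abundant of the 10 in every library. Krt18 was at 3239 TPM in shTopors 1 and 2168 TPM in shTopors 2, against 2069 and 1719 TPM in shCtrl 1 and shCtrl 2. These levels ranked 23rd and 43rd among all genes in shTopors, and 35th and 47th in shCtrl. Both shTopors values of Krt18 thus lay above both controls, with shTopors 1 standing furthest out. Its log2 difference was 0.49 (SE 0.241, 95% interval -0.078 to 1.06, adjusted p = 0.395 in limma). Krt8 was at 3218 and 2132 TPM in shTopors, against 2193 and 2096 TPM in shCtrl, so shTopors 2 fell between the controls and the groups overlapped. The log2 difference of Krt8 was 0.29 (SE 0.233, 95% interval -0.26 to 0.84, adjusted p = 0.575 in limma), an interval with 0 well inside it. Leaving out shTopors 2, with the lone shTopors library assumed to vary like the controls, gave log2 differences of 0.78 for Krt18 (adjusted p = 0.00265 in limma) and 0.59 for Krt8 (adjusted p = 0.0269). Without shTopors 1 they were 0.20 and -0.0081, neither past the threshold. The near-identical processed pseudogene Krt8-ps, which shares 941 bases with Krt8 at 98.6% identity, was at 21.6 and 13.3 TPM in shTopors and 13.5 and 13.5 TPM in shCtrl, and reads of these copies are hard to tell apart.

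In mm10, Krt8 (ENSMUSG00000049382) spans chr15:101996698-102004482 on the minus strand and Krt18 (ENSMUSG00000023043) spans chr15:102028180-102032027 on the plus strand, so the genes are transcribed away from each other, with 23697 bases between them and no gene of at least 1 TPM in that gap. Krt18 is the only type I gene placed beside the type II keratins. Because this pair stood at nearly the same level and shares a neighbourhood, the 250 bases before each start are shown, together with those of the third keratin of the same cluster, Krt7. Sequences are from RefSeq, build GRCm38.p6, the same assembly as mm10, read 5′ to 3′ on the gene's strand and counted from the RefSeq start, which for each of the 3 genes lies inside the longer annotated span given here. They cover chr15:102004343-102004592 (minus strand) for Krt8, chr15:102027966-102028215 (plus strand) for Krt18 and chr15:101412153-101412402 (plus strand) for Krt7. Capitals mark matches on either strand to any of 6 motifs, namely the TATA box TATAAA, the GC box GGGCGG, the CCAAT box CCAAT, the AP-1 motif TGANTCA, the TEAD motif GGAATG and the RBPJ motif TGGGAA.
Krt8: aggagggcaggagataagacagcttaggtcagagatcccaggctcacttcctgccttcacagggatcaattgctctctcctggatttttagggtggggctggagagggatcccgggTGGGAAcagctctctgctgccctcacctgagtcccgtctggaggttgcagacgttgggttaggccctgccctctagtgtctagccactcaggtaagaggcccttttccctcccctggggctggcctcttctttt
Krt18: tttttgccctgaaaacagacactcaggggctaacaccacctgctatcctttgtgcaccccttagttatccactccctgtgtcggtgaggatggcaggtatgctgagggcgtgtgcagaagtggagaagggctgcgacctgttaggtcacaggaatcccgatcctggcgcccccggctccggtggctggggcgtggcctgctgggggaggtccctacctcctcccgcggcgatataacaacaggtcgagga
Krt7: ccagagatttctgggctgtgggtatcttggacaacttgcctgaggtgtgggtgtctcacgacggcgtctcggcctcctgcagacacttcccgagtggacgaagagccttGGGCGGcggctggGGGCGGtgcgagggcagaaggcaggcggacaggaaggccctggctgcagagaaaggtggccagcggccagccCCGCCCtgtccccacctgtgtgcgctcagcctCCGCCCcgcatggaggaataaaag
The Krt8 window had a single match, TGGGAA at bases 134 to 129 before the start, a word found in 21.6% of 32851 promoter windows of this length. The Krt18 window had no match to the 6 words. The Krt7 window held 4 matches to GGGCGG, 2 on each strand, where 32.7% of all windows held at least 1. The shares of all windows were 12.4% for TATAAA, 33.8% for CCAAT, 6.75% for TGANTCA and 12.6% for GGAATG. A match is a description of letters and not a site. Promoters were matched for 7 of the 10 genes, not for Krt19, Sox9 and Cd24a.

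Krt19, the type I keratin of bile duct cells, differed most between the shTopors libraries among the 7 tested genes. It was at 1396 TPM in shTopors 1 and 345 TPM in shTopors 2, against 341 and 296 TPM in shCtrl. Only shTopors 1 stood well apart, at 4.04 times the level of shTopors 2, which exceeded the higher control by little. The group means were 870.5 ± 743 TPM in shTopors and 318 ± 31.8 TPM in shCtrl (SD, n = 2 each). The log2 difference was 1.13 (SE 0.57, 95% interval -0.22 to 2.47, adjusted p = 0.405 in limma). It was 0.12 without shTopors 1 (adjusted p = 0.863 in limma) and 2.13 without shTopors 2 (adjusted p = 2.06e-10), so the difference of Krt19 rests on shTopors 1. The gene (ENSMUSG00000020911) lies at chr11:100140810-100148665 on the minus strand in mm10.

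Krt7, the type II partner of Krt19 in bile ducts, did not share its pattern in full. Its level was 127 and 64.4 TPM in shTopors, against 92.6 and 106 TPM in shCtrl. The shTopors libraries thus lay on opposite sides of both controls, with a log2 difference of -0.13 (SE 0.346, 95% interval -0.94 to 0.68, adjusted p = 0.872 in limma). That difference was -0.62 without shTopors 1 and 0.36 without shTopors 2, neither past the threshold. Median-of-ratios scaling, which moved the median of all tested genes from -0.18 to -0.015, gave 0.058 for Krt7. Krt7 (ENSMUSG00000023039) spans chr15:101411043-101430313 on the plus strand in mm10. Krt23, a type I keratin known as a stress-inducible gene of mouse liver, was listed at 0 and 0.0363 TPM in shTopors and at 0 and 0 TPM in shCtrl, and was not tested. Its gene (ENSMUSG00000006777) spans chr11:99477974-99493137 on the minus strand.

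Ratios between keratins within a library do not depend on how libraries are scaled. The ratio of Krt8 to Krt18 was 0.993 and 0.984 in shTopors, against 1.06 and 1.22 in shCtrl. Both knockdown libraries were therefore close to equal amounts, while the controls held more Krt8 than Krt18. Summed type II over summed type I levels of the 5 keratins came to 0.722 and 0.874 in shTopors, against 0.949 and 1.09 in shCtrl. Krt19 made up 30.1% and 13.7% of type I TPM in shTopors, against 14.1% and 14.7% in shCtrl, so its share was higher in shTopors 1 alone. With 2 libraries against 2, an exact permutation test of such a ratio cannot give a two-sided p below 0.333. No other test of the ratios was run, and they are given as a description. The 5 keratins summed to 7979.7 and 4710.1 TPM in shTopors, against 4696 and 4218 TPM in shCtrl, which is 0.798% and 0.471% of TPM against 0.470% and 0.422%.

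**Figure D2:**
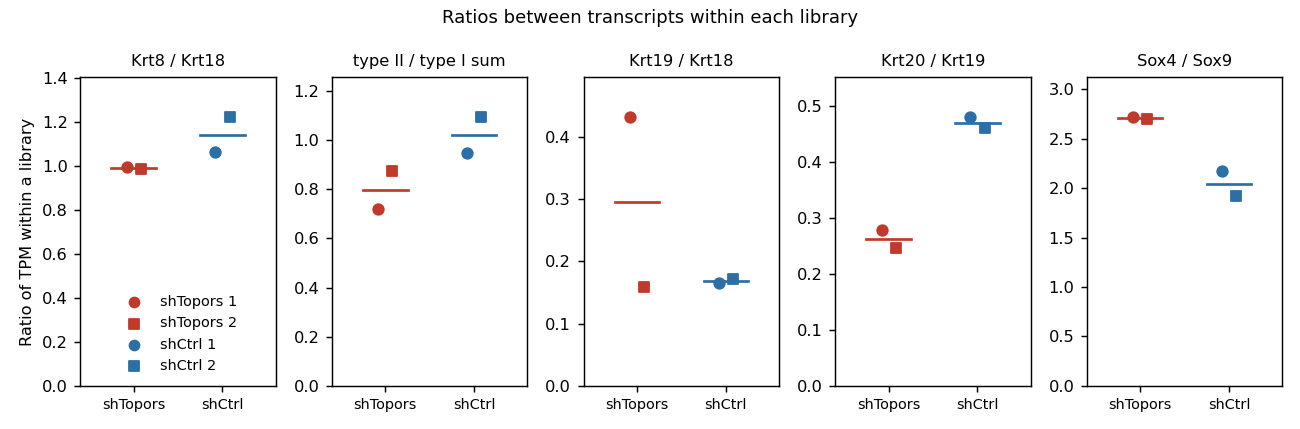
Ratios of TPM between transcripts within each library, by group, with bars at group means. The Krt8 to Krt18 ratio is 0.993 and 0.984 in shTopors and 1.06 and 1.22 in shCtrl, whereas the Krt19 to Krt18 ratio stands out in shTopors 1 alone, at 0.431.

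The rest of the keratin family was almost silent. Of 49 other keratin genes in the table, 31 were at 0 in every library and 3 were tested, none of which passed in limma. Counted together with the keratins described above, the type I cluster on chromosome 11 held 27 keratin genes. Of these, 3 had a mean of at least 1 TPM, Krt19 among them. Chromosome 15 held 27 with 4 at that level, among them Krt7, Krt8 and Krt18. The most abundant keratin outside the 10 genes was Krt20, a type I keratin known from intestinal and urothelial surface cells. Krt20 was at 389 and 85.2 TPM in shTopors, against 164 and 136 TPM in shCtrl. Like Krt19, it was highest in shTopors 1, but in shTopors 2 it was below both controls, so its groups overlapped (log2 difference 0.29, SE 0.619, adjusted p = 0.841 in limma). Without shTopors 1 the log2 difference of Krt20 was -0.80, and without shTopors 2 it was 1.37 (adjusted p = 0.000172 in limma). The ratio of Krt20 to Krt19, chosen after the values were seen, was 0.279 and 0.247 in shTopors and 0.480 and 0.461 in shCtrl. Krt80 was at 9.14 and 2.38 TPM in shTopors, against 6.54 and 3.29 TPM in shCtrl, and Krt10, a keratin of differentiated epidermis, at 0.769 and 1.98 TPM against 1.26 and 1.81 TPM. Their log2 differences were 0.040 and -0.13.

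Sox9 had the most negative difference of the 7 tested genes. Its level was 26.9 and 42.1 TPM in shTopors, against 76.8 and 91.2 TPM in shCtrl. Every shTopors value was therefore well under every control, and the mean of 34.5 ± 10.7 TPM in shTopors was 2.44-fold lower than the 84.0 ± 10.1 TPM in shCtrl (SD, n = 2 each). The log2 difference was -1.29 (SE 0.296, 95% interval -1.99 to -0.59), with an unadjusted p = 0.00316 and an adjusted p = 0.176 in limma that did not pass. Without shTopors 1 the log2 difference of Sox9 was -0.98 (adjusted p = 0.0398 in limma) and without shTopors 2 it was -1.60 (adjusted p = 9.7e-05). When a control was left out, the difference was -1.41 or -1.17, and the adjusted p in limma was 0.637 without shCtrl 1 and 0.93 without shCtrl 2. Sox9 (ENSMUSG00000000567) spans chr11:112782224-112787760 on the plus strand in mm10. The nearest tested gene before it, the noncoding BC006965, ends 247 bases away on the minus strand, and was at 0.424 and 0.442 TPM in shTopors, against 1.39 and 2.07 TPM in shCtrl. On the other side the nearest tested gene was the long noncoding RNA 2610035D17Rik, also on the minus strand and 256134 bases away. It was at 4.43 and 10.0 TPM in shTopors, against 20.1 and 27.8 TPM in shCtrl, a log2 difference of -1.67 (SE 0.397, adjusted p = 0.178 in limma). Sox9 and both of these transcripts were thus lower in each shTopors library than in each control, as were 35.2% of all tested genes, and none passed. BC006965 exceeded 1 TPM only in the controls, so it entered the test through the group where it was higher.

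Sox4, a transcription factor of progenitor cells that acts with SOX9 in bile duct formation in mice, was at 73.1 and 114 TPM in shTopors, against 167 and 175 TPM in shCtrl. The controls lay close together and both shTopors values were below them. The log2 difference was -0.90 (SE 0.276, 95% interval -1.55 to -0.25, adjusted p = 0.239 in limma), and the mean was 1.83-fold lower in shTopors. It was -0.58 without shTopors 1 (adjusted p = 0.249 in limma) and -1.21 without shTopors 2 (adjusted p = 0.00164). Sox4 exceeded Sox9 in each library, by 2.72 and 2.70 times in shTopors and by 2.17 and 1.92 times in shCtrl. Its gene (ENSMUSG00000076431) spans chr13:28948919-28953713 on the minus strand, where the long noncoding gene Gm26735 overlaps it on the opposite strand, at no more than 0.321 TPM in any library. The 250 bases before the Sox4 start (chr13:28953700-28953949, minus strand, RefSeq, GRCm38.p6) are shown because Sox4 was the only one of the 3 lower genes with a matched promoter. They are counted from a RefSeq start inside the span above, with the same motifs in capitals.
Sox4: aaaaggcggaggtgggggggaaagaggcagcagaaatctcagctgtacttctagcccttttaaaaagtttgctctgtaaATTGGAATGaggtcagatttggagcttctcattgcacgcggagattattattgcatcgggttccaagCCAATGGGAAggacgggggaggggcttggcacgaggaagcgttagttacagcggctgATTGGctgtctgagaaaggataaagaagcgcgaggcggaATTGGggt
The Sox4 window held CCAAT 4 times, 3 of them on the opposite strand, GGAATG at bases 168 to 163 before the start and TGGGAA at bases 100 to 95. GGAATG overlapped the farthest CCAAT match, and TGGGAA shared a base with another. The nearest tested genes on both sides of Sox4 had overlapping groups. Of these, Cdkal1 was at 20.3 and 17.0 TPM in shTopors and 13.8 and 20.5 TPM in shCtrl.

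Cd24a, which encodes a small glycosylphosphatidylinositol-anchored surface protein, was the most abundant of the non-keratin genes. It was at 291 and 347 TPM in shTopors, against 438 and 557 TPM in shCtrl, with no overlap. The log2 difference was -0.64 (SE 0.229, 95% interval -1.18 to -0.097, adjusted p = 0.289 in limma). Without shTopors 2 it was -0.76 (adjusted p = 0.0317 in limma), and without shTopors 1 it was -0.51 (adjusted p = 0.264). Cd24a (ENSMUSG00000047139) spans chr10:43578284-43584265 on the plus strand in mm10. Its nearest tested neighbour, 1700021F05Rik, lay on the other side of the controls, at 15.96 and 13.6 TPM in shTopors against 8.92 and 10.3 TPM in shCtrl.

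Epcam and Prom1, the surface markers most used to isolate bile duct and progenitor cells, were near 0. Epcam was at 0.0348 and 0.0975 TPM in shTopors and at 0 and 0.0250 TPM in shCtrl. Prom1 was at 0.0173 and 0.00597 TPM in shTopors and was listed at 0 in both controls. No fold is given at such levels. In mm10, Epcam (ENSMUSG00000045394) spans chr17:87635979-87651129 on the plus strand and Prom1 (ENSMUSG00000029086) spans chr5:43993620-44102032 on the minus strand.

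**Figure D3:**
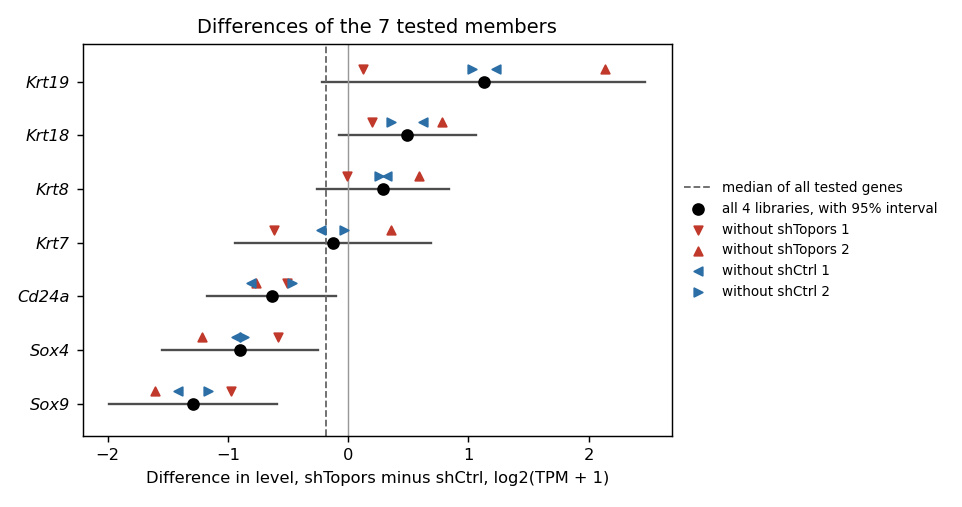
Difference in level between shTopors and shCtrl for the 7 tested genes, on the log2(TPM + 1) scale, with 95% intervals from limma (black) and the value with each library left out (triangles). The dashed line is the median of all tested genes, at -0.18. Sox9, Sox4 and Cd24a lie to its left in every version, and Krt19 moves from 2.13 to 0.12 depending on which shTopors library is left out.

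In all 7 tested genes shTopors 1 was the highest (4 keratins) or the lowest (Sox9, Sox4 and Cd24a) of the 4 libraries. This was chosen after the values were seen. Over all tested genes shTopors 1 was at either end for 62.9%.

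The name of the group fitted only in part. Among 10 bile duct markers, Krt19 and Spp1 carried most of the summed level. Spp1, the osteopontin gene, was at 341 and 636 TPM in shTopors and 441 and 919 TPM in shCtrl. Pkhd1, the fibrocystin gene of primary cilia, was at 47.1 and 73.7 TPM in shTopors, against 84.7 and 108.8 TPM in shCtrl. Cftr, Aqp1 and Sctr were scarce. The chloride channel gene Cftr reached 2.93 TPM at most, the water channel gene Aqp1 reached 3.39 TPM, and the secretin receptor gene Sctr reached 0.409 TPM. The cells therefore held Krt7, Krt19, Sox9, Spp1 and Pkhd1 transcripts, with Epcam and Prom1 near 0.

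Among a wider list of 38 bile duct and progenitor genes that excludes the 10 genes above, 27 were tested and none passed in limma in either direction, beside 0.037% of all tested genes. The list's median log2 difference was -0.68, beside -0.18 for all tested genes, and 20 of the 27 lay below that of all genes. All shTopors values lay under all controls for 13 of the 27 and over them for 3, where 35.2% and 14.6% of all tested genes did so. The 13 include Aqp1, which averaged 0.31 TPM in shTopors and 2.29 TPM in shCtrl. Aqp1 thus entered the test, and the list's median and counts, only through the group where it was higher. The smallest p belonged to Onecut2, a liver and duct transcription factor, at 40.8 and 30.3 TPM in shTopors against 78.7 and 115.8 TPM in shCtrl. Next were Cdh6, a cadherin gene, at 91.9 and 136 TPM against 226 and 274 TPM, and Fgfr2, a fibroblast growth factor receptor gene, at 87.0 and 71.2 TPM against 134 and 224 TPM, shTopors before shCtrl in both. Their adjusted p-values in limma were 0.165, 0.177 and 0.219. Each of these 3 genes passed without shTopors 1 and without shTopors 2, with log2 differences between -1.62 and -0.87, and none passed without either control.

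NOTCH signalling genes had a median like that of all genes, with a few members far lower. Of 36 genes, 29 were tested, none passed in limma, and the median log2 difference was -0.22. The groups stood apart for 11 of the 29 as lower, a share near the 35.2% of all tested genes, and for 1 as higher, where the share of all tested genes was 14.6%. Jag1, the ligand for bile duct formation, was at 79.6 and 113 TPM in shTopors, against 262 and 292 TPM in shCtrl (log2 difference -1.54, SE 0.255, adjusted p = 0.121 in limma). Notch2, its receptor in the developing liver, was at 46.9 and 50.2 TPM in shTopors, against 95.2 and 115 TPM in shCtrl (adjusted p = 0.172). Maml1, a coactivator of NOTCH transcription complexes, was at 7.72 and 8.26 TPM in shTopors, against 22.1 and 17.98 TPM in shCtrl (adjusted p = 0.172). Like the duct genes above, these 3 passed without shTopors 1 (log2 differences -1.29, -1.05 and -1.18) and without shTopors 2 (-1.78, -1.14 and -1.26). None of the 3 passed without shCtrl 1 (adjusted p = 0.455, 0.613 and 0.72 in limma) or without shCtrl 2 (0.872, 0.938 and 0.872). Hes1, a direct NOTCH target and named here after its values were seen, overlapped, at 88.5 and 53.7 TPM in shTopors and 80.1 and 154 TPM in shCtrl.

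The SOX family outside Sox9 and Sox4 held 17 genes, of which 12 were at 0 in every library and 4 were tested. Sox5 was at 0.889 and 1.62 TPM in shTopors, against 9.59 and 11.7 TPM in shCtrl, a log2 difference of -2.38 (SE 0.312, adjusted p = 0.0823 in limma). Sox6, its close relative in cartilage, was at 6.35 and 8.08 TPM in shTopors, against 14.6 and 21.7 TPM in shCtrl (adjusted p = 0.21). Both lay below both controls in each shTopors library. The groups stood apart in this way for 3 of the 4 tested genes, where 35.2% of all tested genes did so. The list's median log2 difference was -0.73, beside -0.18 for all tested genes. Sox13 overlapped, at 6.34 and 3.82 TPM in shTopors and 6.35 and 4.88 TPM in shCtrl. Both Sox5 and Sox6 passed without shTopors 1 (log2 differences -2.15 and -1.05) and without shTopors 2 (-2.62 and -1.35). Neither passed without shCtrl 1 (adjusted p = 0.321 and 0.641 in limma) or without shCtrl 2 (0.872 and 0.984).

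The median of other filament and filament-anchoring genes was close to that of all genes. Of 25, 14 were tested, none passed in limma, and the median log2 difference was -0.20, beside -0.18 for all tested genes. The groups stood apart for 7 of the 14 as lower and for 2 as higher, where 35.2% and 14.6% of all tested genes did so. Vim, the vimentin gene of mesenchymal and cultured cells, was at 270.2 and 346 TPM in shTopors, against 603 and 555 TPM in shCtrl (log2 difference -0.92, SE 0.222, adjusted p = 0.186 in limma). Jup, which encodes plakoglobin of desmosomes, was at 77.4 and 71.0 TPM in shTopors, against 121 and 122 TPM in shCtrl (adjusted p = 0.248). Perp, a desmosome-associated membrane protein gene, was at 186 and 51.6 TPM in shTopors, against 260.5 and 262 TPM in shCtrl (adjusted p = 0.303). Without shTopors 1 the log2 difference of Perp was -2.32 (adjusted p = 4.28e-08 in limma), and without shTopors 2 it was -0.49. Vim passed without shTopors 2, with a log2 difference of -1.10 (adjusted p = 0.000918 in limma), and had an adjusted p of 0.0597 without shTopors 1. Neither Perp nor Vim passed when a control was left out.

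Hepatocyte markers, the other arm of the hepatocyte and duct contrast, were mixed. Of 40, 21 were tested, none passed in limma, and the median log2 difference was -0.24. The groups stood apart for 5 of the 21 as lower and 1 as higher, shares below the 35.2% and 14.6% of all tested genes. Ttr, the transthyretin gene, was at 195 and 410.3 TPM in shTopors, against 1119 and 2168 TPM in shCtrl (adjusted p = 0.129). It passed without shTopors 1 or shTopors 2 (log2 differences -1.92 and -2.99), but not without shCtrl 1 or shCtrl 2 (adjusted p = 0.231 and 0.872 in limma). The pioneer factor gene Foxa1 was at 1.54 and 1.65 TPM in shTopors, against 6.20 and 8.80 TPM in shCtrl, and Cebpa, the gene of a hepatocyte transcription factor, at 8.05 and 11.6 TPM against 20.9 and 22.4 TPM. Their adjusted p-values in limma were 0.13 and 0.218. Foxa1 passed without shTopors 1 or shTopors 2 (log2 differences -1.66 and -1.73), and Cebpa without shTopors 2 (-1.32). Without shCtrl 1 or shCtrl 2, neither passed, with adjusted p-values of 0.455 and 0.872 for Foxa1 and 0.72 and 0.976 for Cebpa in limma. Hnf4a, the central hepatocyte transcription factor gene, overlapped, at 179 and 95.3 TPM in shTopors and 158 and 156 TPM in shCtrl. Alb, the albumin gene, was at 4.15 and 402 TPM in shTopors and 118 and 271 TPM in shCtrl, so shTopors 1 and shTopors 2 lay on opposite sides of the controls. Without shTopors 1 the log2 difference of Alb was 1.17 (adjusted p = 0.00939 in limma), and without shTopors 2 it was -5.12 (adjusted p = 2.87e-21), and it did not pass when a control was left out.

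**Figure D4:**
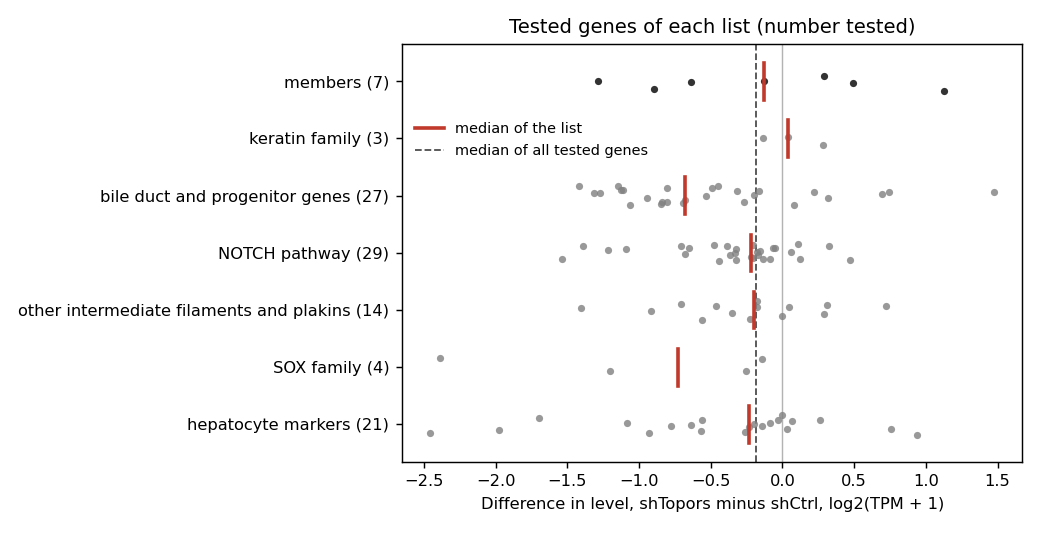
Difference in level between shTopors and shCtrl of every tested gene of each list, on the log2(TPM + 1) scale, with the list's median in red and the median of all tested genes dashed. The bile duct and progenitor genes have a median of -0.68 and the NOTCH genes of -0.22, beside -0.18 for all tested genes. Points are spread vertically for legibility only.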

How the data were processed

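The authors deposited 1 table of TPM per gene and library. Libraries were strand-specific and made after removal of ribosomal RNA, per the labels' protocols. HISAT2, HTSeq, StringTie, DESeq2 and the mm10 build appear in the submitters' processing notes, without roles or versions. Which program wrote the TPM, and with which strand setting, is not given in the sources. Of 52633 lines, those of 3 repeated identifiers were summed. Coordinates came from GENCODE M21 (52397 identifiers found) and promoters from RefSeq.

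Log2(TPM + 1) values were tested with limma 3.58.1 in R 4.3.3 (mean-variance trend, shTopors minus shCtrl, no other term) over the 13509 genes averaging 1 TPM or more. P-values were adjusted by the Benjamini-Hochberg method over all of them and called under 0.05. This scale understates differences of low genes. Lists are described by counts and medians, with no set test. Near-identical copies were searched among transcripts at 90% identity over at least 200 bases. Scripts ran in Python 3.11.15. The fit was tested on simulated data with an equal spread in both groups, unlike the shTopors and shCtrl pairs here. That check does not show how the fit behaves at the spread of these libraries.

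The members and lists were chosen with earlier results of these data known. Of each list, the text names up to 3 genes with the smallest p among those reaching 5 TPM in the higher group's mean, since none passed, plus the most abundant other keratins and SOX genes, bile duct markers, Alb, Ttr and Hnf4a. Other genes are said to be chosen after their values were seen, or are neighbours or copies. A result for a further bile duct marker is not reported here. The alternatives changed the pseudocount (to 0.1 or 5), filter, scaling or variance model, blocked on replicate number, or left out each library in turn.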

Additional observations from a re-analysis of the deposited data

How the results depend on the processing

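No member passed with all 4 libraries under any pseudocount, filter, scaling, variance model or block, and with 1 library left out 0 to 6 did. Sox9, Sox4, Cd24a, Krt18 and Krt19 kept their direction under all 14 alternatives, while Krt7 gave 0.058 after median-of-ratios scaling (-0.62 to 0.36 with 1 library left out) and Krt8 gave -0.024 after quantile normalization (-0.0081 to 0.59). Over all genes, 1 passed as higher and 4 as lower. As higher, 0 passed with no filter, a filter at 5 TPM, median-of-ratios scaling, quantile normalization or rescaling that drops the most abundant, mitochondrial and small RNA genes. As lower, 1 passed under each of these except no filter, with 0. With the replicate block 6 and 27 passed, and with 1 library left out 0 to 687 and 0 to 1479. After quantile normalization 2 members lay above the all-gene median, against 4 (3 to 4 with 1 library left out). With the block, 1 SOX gene (Sox5, adjusted p = 0.0497 in limma) and 1 hepatocyte marker (Ttr, adjusted p = 0.0295) passed, as did Topors (adjusted p = 0.0497). With 1 library left out, 0 to 1 other keratins, 0 to 17 duct genes, 0 to 8 NOTCH genes, 0 to 4 filament genes, 0 to 2 SOX genes and 0 to 8 hepatocyte markers passed. Directions also reversed for Krt10 (0.17 after quantile normalization) and Sox13 (0.088 with quantile normalization and 0.013 with median-of-ratios scaling). With 1 library left out the range was -0.80 to 1.37 for Krt20, -0.75 to 0.83 for Krt80, -0.51 to 0.24 for Krt10, -0.45 to 0.16 for Sox13, -5.12 to 1.17 for Alb, -0.71 to 0.19 for Hnf4a and -0.69 to 0.10 for Egfl7. The cause was not tested. The replicate numbers are not said to mark shared cultures, and same-numbered libraries deviated together with a correlation of 0.199 over genes. TPM keeps no depth, so precision at low levels is unknown.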

Other observations

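Some genes of the lists described above stood apart in shTopors 1 alone, as Krt19 did. They were chosen after their values were seen and none passed an adjusted p of 0.05 in limma. Tspan8, a tetraspanin gene of digestive and bile duct epithelium, was at 669.8 and 107 TPM in shTopors, against 88.3 and 103 TPM in shCtrl. Apoa1, the apolipoprotein A-I gene, was at 113 and 11.5 TPM in shTopors, against 12.3 and 28.4 TPM in shCtrl. St14, the gene of the epithelial protease matriptase, was at 16.5 and 4.94 TPM in shTopors, against 7.56 and 6.79 TPM in shCtrl.

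Within the bile duct list, Cd44 and Itgb6 lay above both controls in both shTopors libraries, and were chosen after their values were seen. Of the 27 tested genes of that list, 3 lay above in this way and 13 below, Aqp1 among the 13. Cd44, a hyaluronan receptor gene, was at 169 and 219 TPM in shTopors, against 112 and 117 TPM in shCtrl (log2 difference 0.74, SE 0.238, adjusted p = 0.249 in limma). Itgb6, an integrin gene of epithelia, was at 38.4 and 24.0 TPM in shTopors, against 21.4 and 15.9 TPM in shCtrl. Neither passed the threshold. The NOTCH target Hey1 was likewise picked with its levels already known. Hey1 stood at 0.205 and 0.613 TPM in shTopors, against 1.54 and 4.29 TPM in shCtrl. Only the controls exceeded 1 TPM, so the higher group alone brought Hey1 into the test. Its adjusted p = 0.229 in limma did not pass, and nothing is drawn from it. Of the 29 tested NOTCH genes, 11 stood apart as lower, Hey1 among them, 1 as higher and 17 overlapped. Those that overlapped included Hes1 (log2 difference -0.68) and Nrarp (0.063), both named after their values were seen.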
